A study of Homo sapiens with 6 samples.

Results

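The genes described here are 10 genes of cystine import, glutathione and thioredoxin defence in LX-2 cells: SLC7A11, SLC3A2, GCLC, GCLM, GSR, GPX4, TXNRD1, SRXN1, NQO1 and NFE2L2. They were taken by symbol from the 60605 rows of the deposited table that carry an Ensembl gene identifier, and each symbol matched 1 row. LX-2 is an established human hepatic stellate cell line, grown here in DMEM with fetal bovine serum. The cells spent 24 h in medium that HCT116, a widely used colorectal carcinoma line, had conditioned. The HCT116 cells carried either an empty lentiviral vector (Vector-CM, n = 3 libraries) or a lentiviral vector that overexpresses FGFBP1, which binds fibroblast growth factors outside the cell and carries them (FGFBP1-CM, n = 3 libraries), and both were selected with puromycin. The comparison asks how LX-2 transcripts differ when the tumor cells that conditioned the medium overexpress FGFBP1. All libraries come from 1 stellate line and 1 tumor line, and the labels do not say that the cultures or batches of medium were separate, so p-values measure only the spread between these libraries, which may be technical.

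Total counts ranged from 14003780 to 18508113 per library. CPM sets a count against the TMM-scaled size of its library, and FPKM also divides by gene length. On the first principal component, which carried 43.5% of the variance, FGFBP1-CM replicate 1 stood apart at 38.1. The other FGFBP1-CM libraries lay at 4.73 and 4.96, and the Vector-CM libraries between -18.3 and -12.9. The values of the 9 tested genes are therefore also given without FGFBP1-CM replicate 1. Of 14 hepatic stellate markers, 12 had at least 10 counts in each library, while DES had at most 4 counts and LRAT had 0 in all 6 libraries. Their summed level was 3920 to 4153 CPM in Vector-CM and 2953 to 3570 CPM in FGFBP1-CM. The 14 markers of colorectal epithelium stand for the cells that conditioned the medium. They summed to 9.32 to 11.2 CPM in Vector-CM and 9.30 to 12.4 CPM in FGFBP1-CM. Of these 14, 1 to 3 had at least 10 counts in a library, and 2 had enough counts to be tested. CEACAM5 and CEACAM6 were at 0 in every library. In bulk RNA a smaller number of cells with a transcript and less of it in each cell cannot be told apart.

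Cells take up cystine in exchange for glutamate through system xc-, a pair of membrane proteins in which SLC7A11 is the transporting subunit and SLC3A2 the chaperone subunit. Inside the cell cystine is reduced to cysteine, and glutamate-cysteine ligase, made of the catalytic subunit GCLC and the modifier subunit GCLM, joins cysteine to glutamate in the rate-limiting step of glutathione synthesis. GSR returns oxidized glutathione to its reduced form, TXNRD1 does the same for cytosolic thioredoxin, GPX4 uses glutathione to reduce lipid hydroperoxides and so protects cells from ferroptosis, and SRXN1 repairs overoxidized peroxiredoxins. NFE2L2 encodes NRF2, the transcription factor that binds antioxidant response elements and switches on many of these genes, and NQO1, a quinone reductase, is among its best known targets. In hepatic stellate cells these systems are studied because oxidative stress accompanies their activation in liver fibrosis.

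The core of the antioxidant response element, TGACNNNGC, was searched on both strands in RefSeq promoter windows (GRCh38.p14) that run from 250 bases before a transcription start to 50 bases after it. The windows covered 8 of the 10 genes, all but SLC7A11 and GSR, with 14 windows in all. The element was found in 4 windows of 3 genes (GCLM, SLC3A2 and TXNRD1), and in 4687 of all 35116 windows (13.3%). Sequence farther from a start was not searched, so a gene without a match here may still hold the element. These stretches are shown because they hold the letters of the element in 3 of the genes whose transcripts are described next. Each is printed 5′ to 3′ on the strand of its gene, with the matched element in capitals.
GCLM, chr1:93909446-93909474, minus strand: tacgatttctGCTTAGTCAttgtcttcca
SLC3A2, chr11:62881652-62881680, plus strand: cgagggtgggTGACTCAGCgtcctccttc
TXNRD1, upstream start, chr12:104215670-104215698, plus strand: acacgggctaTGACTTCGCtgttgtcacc
TXNRD1, downstream start, chr12:104286920-104286948, plus strand: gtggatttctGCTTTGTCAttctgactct
The GCLM match lies 34 to 26 bases before the start and reads on the opposite strand. The SLC3A2 match lies 37 to 29 bases before its start, on the strand of the gene. That start is an internal one, since the span of SLC3A2 runs from 62856102 to 62888875. In TXNRD1 the matches lie 99 to 91 bases before the upstream start and 102 to 94 bases before the downstream start. A further TXNRD1 match ends at the upstream start itself. The SLC3A2 match overlaps TGACTCA, the AP-1 motif, which 4.95% of windows hold. TGATGNAA, the core of the motif bound by ATF4 with its partners, was found in 1 SLC3A2 window and in no window of the other 7 genes, against 3.62% of all windows. A match is a description of letters and was not tested as a binding site.

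By FPKM, which allows levels of different genes to be compared, TXNRD1 was the most abundant of the 10 transcripts in LX-2 cells and SRXN1 had the lowest value. The mean over the 6 libraries was 85.5 ± 18.3 FPKM (SD, n = 6) for TXNRD1 and 33.5 ± 3.87 FPKM (SD, n = 6) for GPX4, and their ranges did not overlap. GSR (26.6 ± 2.69 FPKM), GCLM (25.7 ± 6.11 FPKM), SLC3A2 (25.6 ± 4.51 FPKM) and NQO1 (22.3 ± 2.79 FPKM) followed closely. Among the neighbours in this order from GPX4 down to NQO1 the ranges overlapped, so these ranks are not separated by their spread over all libraries. Within a library, GPX4 was above GSR in 5 of 6, GSR above GCLM in 4 of 6, GCLM above SLC3A2 in 3 of 6 and SLC3A2 above NQO1 in 6 of 6. NFE2L2 was next at 13.3 ± 1.16 FPKM, below NQO1 in all 6 libraries and without overlap of their ranges. SLC7A11 ranked 8 of 10 at 4.73 ± 1.65 FPKM, and GCLC followed at 3.65 ± 0.293 FPKM with an overlapping range. SLC7A11 was above GCLC in 4 of 6 libraries. Their means were 3.43 and 3.46 FPKM in Vector-CM and 6.02 and 3.84 FPKM in FGFBP1-CM (n = 3 each). SRXN1 was at 0.151 ± 0.0804 FPKM (SD, n = 6), below GCLC in all 6 libraries. Its level is uncertain, because 85.0% of its exon bases are shared with a neighbour and such reads may have been left uncounted. The 2 subunits of system xc- and the 2 subunits of glutamate-cysteine ligase were therefore far apart in transcript level, with the transporting subunit SLC7A11 below the chaperone SLC3A2 and the catalytic subunit GCLC below the modifier GCLM in each library.

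**Figure D1:**
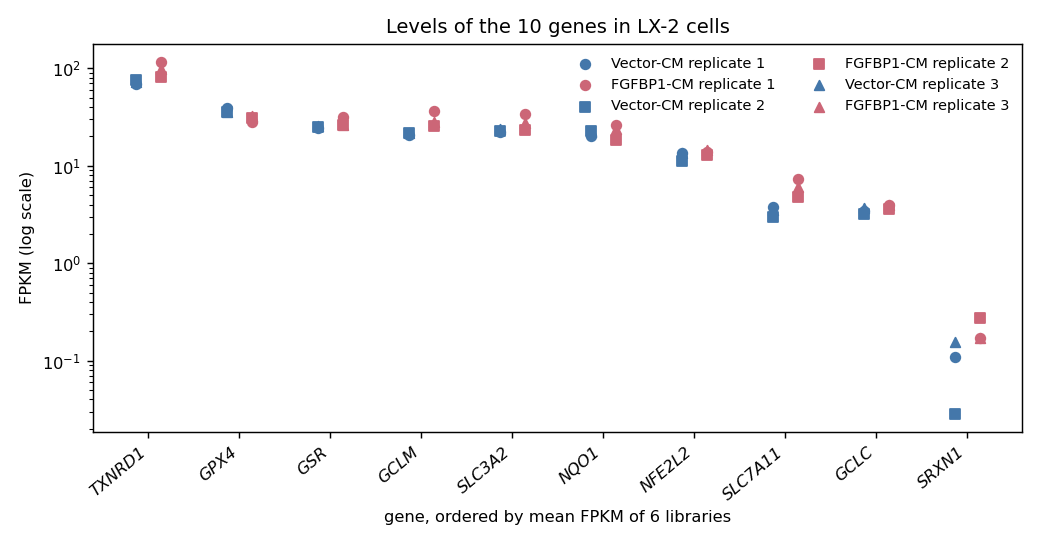
FPKM (log scale) of the 10 genes in each of the 6 libraries, ordered by their mean over all libraries, with Vector-CM in blue, FGFBP1-CM in red and replicates 1 to 3 as circle, square and triangle. TXNRD1 lies above GPX4, NFE2L2 below NQO1, and SRXN1 below GCLC in all 6 libraries, while GPX4, GSR, GCLM, SLC3A2 and NQO1 overlap their neighbours.

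Between the groups, SLC7A11, GCLM and TXNRD1 were higher and GPX4 lower in every FGFBP1-CM library than in every Vector-CM library. The 9 genes that passed the filter on low counts were compared within a fit across 16707 genes (edgeR quasi-likelihood test, Benjamini-Hochberg adjustment). Of these 9 genes, 1 (SLC7A11) had an adjusted p under 0.05, against 20 of the 16707 genes (0.12%, or 0.0539% for higher and 0.0658% for lower calls). Without FGFBP1-CM replicate 1, 2 of the 9 passed, SLC7A11 and GCLM, both higher, against 0.24% of tested genes called higher and 0.181% called lower. Of the 9, 3 were higher without overlap between groups, against 12.8% of all tested genes, and 1 was lower without overlap, against 13.2%. In the other 5 genes, SLC3A2, GCLC, GSR, NQO1 and NFE2L2, the groups overlapped. The genes were chosen by their shared pathway with the fold changes of this same comparison known, in which SLC7A11 was past the threshold, so these counts and values describe them and test nothing. The median log2 fold change was 0.13 over the 9 genes, or 0.11 without FGFBP1-CM replicate 1, and 0.00 over all tested genes either way.

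**Figure D2:**
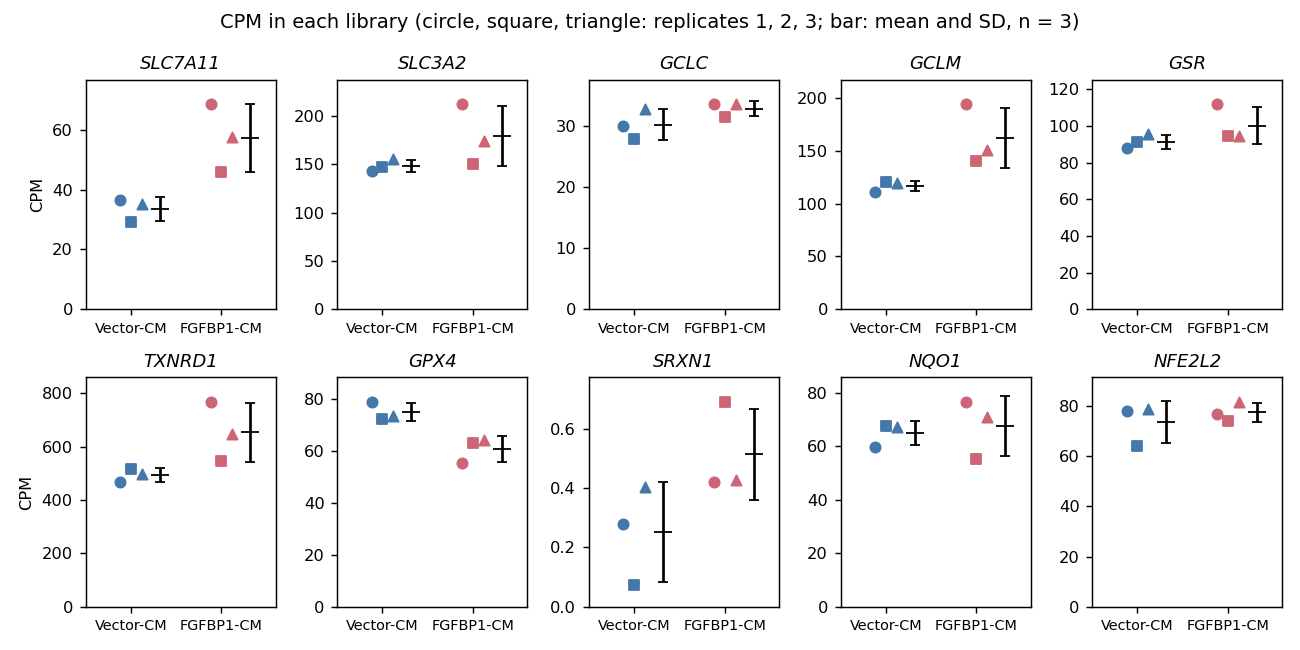
CPM of each of the 10 genes in each library (linear axes from 0), with circle, square and triangle for replicates 1, 2 and 3, and the mean and SD of each group (n = 3) as a bar beside the points. For SLC7A11, GCLM and TXNRD1 all FGFBP1-CM points lie above all Vector-CM points, for GPX4 all lie below, and FGFBP1-CM replicate 1 is the highest of the 6 libraries in SLC7A11, SLC3A2, GCLM, GSR, TXNRD1 and NQO1.

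SLC7A11 (ENSG00000151012; GRCh38 chromosome 4, 138164097 to 138242349, minus strand, 12 exon blocks) showed the largest difference of the 9 genes. In replicates 1, 2 and 3 it had 653, 402 and 522 counts with Vector-CM and 1302, 733 and 941 counts with FGFBP1-CM, which is 36.5, 29.1 and 35.2 CPM against 68.7, 46.0 and 57.6 CPM. Values of a gene are given in this order of replicates throughout. All FGFBP1-CM libraries lay above all Vector-CM libraries, and they spread more widely. With Vector-CM the mean was 33.6 ± 3.94 CPM (SD, n = 3), and with FGFBP1-CM it was 57.4 ± 11.3 CPM (SD, n = 3), or 1.71 times as high. Relative to the Vector-CM mean, FGFBP1-CM replicate 1 was 2.05 times as high, replicate 2 was 1.37 times and replicate 3 was 1.71 times. On the log2 scale SLC7A11 differed by 0.77 (SE 0.127, edgeR adjusted p = 0.0436), and by 0.62 when FGFBP1-CM replicate 1 was left out (edgeR adjusted p = 0.0149). The call was lost without any one Vector-CM library, with log2 fold changes of 0.84, 0.68 and 0.81 without Vector-CM replicate 1, 2 and 3 and adjusted p of 0.0976, 0.176 and 0.242 (edgeR). Of all tested genes, 198 had a larger log2 fold change than SLC7A11. The antisense gene SLC7A11-AS1 shares 865 bp (9.0%) of the 9645 bp of SLC7A11 exons and had 125, 113 and 114 counts in Vector-CM and 118, 128 and 147 counts in FGFBP1-CM. Whether counting used strand is not given in the sources used here, so reads of the shared stretch cannot be told apart.

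SLC3A2 (ENSG00000168003; chromosome 11, 62856102 to 62888875, plus strand), the partner of SLC7A11 and of other amino acid transporters, was at 143, 147 and 156 CPM in Vector-CM and 212, 151 and 175 CPM in FGFBP1-CM. FGFBP1-CM replicate 1 was the highest library, and replicate 2 lay within the Vector-CM range. SLC3A2 differed by 0.27 on the log2 scale (SE 0.0999, edgeR adjusted p = 0.146), and by 0.14 without FGFBP1-CM replicate 1. The FPKM ratio of SLC7A11 to SLC3A2 was 0.169, 0.131 and 0.150 in Vector-CM and 0.215, 0.202 and 0.219 in FGFBP1-CM. The ratio was thus higher in every FGFBP1-CM library, and the 3 FGFBP1-CM libraries lay closer together in this ratio (0.212 ± 0.00847, SD, n = 3) than the Vector-CM libraries (0.150 ± 0.0190, SD, n = 3).

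The subunits of glutamate-cysteine ligase differed from each other in size of change. GCLM (ENSG00000023909; chromosome 1, 93885205 to 93909456, minus strand), whose promoter stretch is printed above, was at 111, 120 and 119 CPM in Vector-CM and 194, 141 and 151 CPM in FGFBP1-CM. Every FGFBP1-CM library was above every Vector-CM library, with replicate 1 well above the other FGFBP1-CM libraries. GCLM differed by 0.47 on the log2 scale (SE 0.1004, edgeR adjusted p = 0.0568), just beyond the threshold, and by 0.32 (edgeR adjusted p = 0.0424) with FGFBP1-CM replicate 1 left out. GCLC (ENSG00000001084; chromosome 6, 53497341 to 53616970, minus strand) was at 29.98, 27.9 and 32.8 CPM in Vector-CM and 33.5, 31.4 and 33.5 CPM in FGFBP1-CM, and the groups overlapped. The difference of GCLC was 0.12 on the log2 scale (SE 0.0829, edgeR adjusted p = 0.430), and 0.11 without FGFBP1-CM replicate 1. The FPKM ratio of GCLM to GCLC was 5.91, 6.86 and 5.78 in Vector-CM and 9.22, 7.11 and 7.17 in FGFBP1-CM, without overlap, although Vector-CM replicate 2 and the lowest FGFBP1-CM library were close.

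Of the reductases, TXNRD1 differed more than GSR. TXNRD1 (ENSG00000198431; chromosome 12, 104215779 to 104350305, plus strand), a selenoprotein and a gene with the element at 2 of its starts, was at 467, 516 and 497 CPM in Vector-CM and 767, 547 and 649 CPM in FGFBP1-CM. The groups did not overlap, but FGFBP1-CM replicate 2 was close to the highest Vector-CM library. TXNRD1 differed by 0.41 on the log2 scale (SE 0.0998, edgeR adjusted p = 0.0680), and by 0.28 without FGFBP1-CM replicate 1 (edgeR adjusted p = 0.102). GSR (ENSG00000104687, chromosome 8) was at 87.8, 91.2 and 95.5 CPM in Vector-CM and 112, 94.3 and 94.4 CPM in FGFBP1-CM. Only FGFBP1-CM replicate 1 lay above the Vector-CM range of GSR. Its difference on the log2 scale was 0.13 (SE 0.0772, edgeR adjusted p = 0.336), and 0.05 without that library. The FPKM ratio of TXNRD1 to GSR was 2.86, 3.04 and 2.79 in Vector-CM and 3.68, 3.11 and 3.69 in FGFBP1-CM, again without overlap.

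GPX4 (ENSG00000167468; chromosome 19, 1103926 to 1106791, plus strand) was the only gene of the 9 with a negative log2 fold change. It was at 79.0, 72.4 and 73.6 CPM in Vector-CM and 55.3, 63.1 and 64.3 CPM in FGFBP1-CM. Every FGFBP1-CM library lay below every Vector-CM library, and replicate 1, the highest FGFBP1-CM library for SLC7A11, GCLM and TXNRD1, was the lowest for GPX4. With Vector-CM its mean was 75.0 ± 3.50 CPM (SD, n = 3), and with FGFBP1-CM it was 60.9 ± 4.89 CPM (SD, n = 3), or 0.812 times as high. On the log2 scale the difference was -0.30 (SE 0.0752, edgeR adjusted p = 0.0711), and -0.24 without FGFBP1-CM replicate 1 (edgeR adjusted p = 0.120). The FPKM ratio of SLC7A11 to GPX4, 2 genes whose products act at opposite ends of the same route from cystine to lipid repair, was 0.0966, 0.0841 and 0.09997 in Vector-CM and 0.260, 0.153 and 0.187 in FGFBP1-CM. Its mean was 0.0935 ± 0.00838 (SD, n = 3) against 0.200 ± 0.0548 (SD, n = 3). The groups could not overlap in this ratio, since SLC7A11 was higher and GPX4 lower in every FGFBP1-CM library.

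SRXN1 (ENSG00000271303; chromosome 20, 646615 to 653370, minus strand) had only 5, 1 and 6 counts in Vector-CM and 8, 11 and 7 counts in FGFBP1-CM and did not pass the filter. All FGFBP1-CM counts were above all Vector-CM counts, but at this depth no fold change is given. A neighbour on the same strand, AL121758.1, shares 2292 bp (85.0%) of the 2698 bp of SRXN1 exons, so reads that match both genes may have been left uncounted and the SRXN1 level is uncertain.

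NQO1 and NFE2L2 showed no difference beyond the spread between libraries. NQO1 (ENSG00000181019; chromosome 16, 69706996 to 69726951, minus strand) was at 59.8, 67.6 and 67.4 CPM in Vector-CM and 76.7, 55.3 and 71.0 CPM in FGFBP1-CM. The FGFBP1-CM group held both the highest and the lowest library. NQO1 differed by 0.06 on the log2 scale (SE 0.104, edgeR adjusted p = 0.769), and by -0.035 without FGFBP1-CM replicate 1. NFE2L2 (ENSG00000116044; chromosome 2, 177227595 to 177392697, minus strand) was at 77.8, 63.7 and 78.6 CPM in Vector-CM and 76.8, 73.7 and 81.4 CPM in FGFBP1-CM, where only Vector-CM replicate 2 lay below the FGFBP1-CM range. For NFE2L2 the difference was 0.07 on the log2 scale (SE 0.0836, edgeR adjusted p = 0.644), 0.08 without FGFBP1-CM replicate 1, and -0.017 without Vector-CM replicate 2. NFE2L2 exons share 1250 bp with neighbouring genes, among them 1054 bp with AC019080.1 on the same strand, which had 57 to 92 counts per library.

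**Figure D3:**
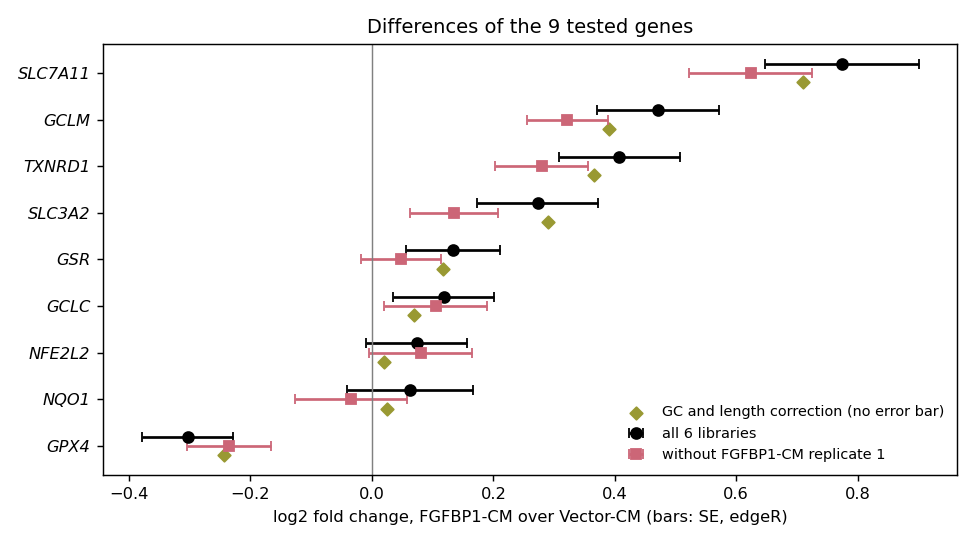
log2 fold change of FGFBP1-CM over Vector-CM for the 9 tested genes (edgeR), with all 6 libraries in black, without FGFBP1-CM replicate 1 in red (bars are SE), and after a correction for GC content and gene length as diamonds without error bars. SLC7A11 is farthest to the right at 0.77 and GPX4 farthest to the left at -0.30, and without FGFBP1-CM replicate 1 the values of SLC7A11, GCLM, TXNRD1 and SLC3A2 are smaller but still above 0.

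The pattern among FGFBP1-CM libraries was shared by several of the genes. FGFBP1-CM replicate 1 was the highest of the 6 libraries in 6 of the 9 tested genes (SLC7A11, SLC3A2, GCLM, GSR, TXNRD1 and NQO1), against 29.5% of all tested genes. Replicate 1 was the highest and replicate 2 the lowest FGFBP1-CM library in 6 of the 9 genes, against 19.1% of all tested genes. Over the 6 libraries, Pearson's r of log2 CPM with SLC7A11 was 0.92 for GCLM, 0.90 for TXNRD1, 0.87 for SLC3A2, 0.80 for GCLC, 0.75 for GSR, 0.58 for NFE2L2, 0.43 for NQO1 and -0.87 for GPX4. Of the 9748 other genes of at least 10 CPM, 95.7% and 94.3% had a lower r than GCLM and TXNRD1. This value was 91.9% for SLC3A2, 85.8% for GCLC, 82.2% for GSR, 71.1% for NFE2L2, 63.9% for NQO1 and 10.98% for GPX4. These correlations share the libraries and the difference between the groups. The 5 genes most like SLC7A11 by this measure were C5orf51 (r = 0.999), HAT1, a histone acetyltransferase (0.997), RIOK2, a kinase of small ribosomal subunit maturation (0.997), SOS2, an exchange factor for RAS (0.995), and FIP1L1, a polyadenylation factor (0.994). Their own log2 fold changes were smaller than that of SLC7A11, at 0.22, 0.35, 0.50, 0.42 and 0.21, and none had an adjusted p under 0.05.

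GC content moved with the differences between the groups. Across the tested genes with GC and length values, Spearman's rho of log2 fold change with GC content was -0.22, a value across genes, which are not independent replicates. SLC7A11 had the lowest GC content of the 10 genes (35.9%) and GPX4 the highest (63.4%), against a median of 48.5% over the tested genes, with GCLM at 40.4%, TXNRD1 at 45.1% and SLC3A2 at 55.7%. After a correction for GC content and length, rho was -0.03 and the log2 fold changes were 0.71 for SLC7A11 (adjusted p = 0.0408, edgeR), 0.39 for GCLM (adjusted p = 0.0714, edgeR), 0.37 for TXNRD1 (adjusted p = 0.0741, edgeR), 0.29 for SLC3A2 (adjusted p = 0.114, edgeR) and -0.24 for GPX4 (adjusted p = 0.105, edgeR). The directions were those of the fit without the correction. SLC7A11 was again the only one of the 9 genes past the threshold, and 47 of the 16707 genes were past it, against 20 without the correction. Of the marker sums, those of hepatocytes and of stellate cells separated the groups, and those of the other cell types overlapped. The summed level of 12 hepatocyte transcripts was 39.6 to 40.9 CPM in Vector-CM and 17.7 to 27.3 CPM in FGFBP1-CM, with 0 to 6 of them at 0 in a library, and 3 of the 5 that were tested were lower past the threshold. The sum of 6 endothelial and leukocyte markers was 4.72 to 5.64 CPM against 3.73 to 6.03 CPM. All 12 tested stellate markers had a negative log2 fold change, with a median of -0.35 and 1 past the threshold (TIMP1). Their part in the values of the 10 genes was not tested.

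Around these genes, 12 lists held 186 further genes of the same pathways, each counted once, of which 175 were tested. None of the 175 had an adjusted p under 0.05 in edgeR, the lowest being that of HMOX1 (adjusted p = 0.0557). When FGFBP1-CM replicate 1 was left out, 1 of them passed in the same edgeR test, HMOX1 (log2 fold change 1.06, adjusted p = 0.000484). At an unadjusted p under 0.05, 25 of these genes were higher and 18 lower in FGFBP1-CM, which is 14.3% and 10.3% of the 175, against 11.1% and 10.7% of all tested genes. The log2 fold change was positive in 98 of the 175 (56.0%), against 50.7% of all tested genes, and without FGFBP1-CM replicate 1 in 90 of the 175 (51.4%), against 49.6%. At the same unadjusted p, 12 of the 175 were higher and 10 lower without that library, against 1321 and 1182 of the 17094 genes tested without it. By DESeq2, 7 of them passed the threshold: HMOX1, SEPHS2, PSAT1 and BTRC were higher and TKT, IDH2 and TXNRD2 lower, while 2.72% and 2.22% of the genes with an adjusted p in DESeq2 were called higher and lower. By limma on log2 FPKM, 0 of them passed. In CPM, 24 of the 175 were higher and 24 lower without overlap between groups, against 12.8% and 13.2% of all tested genes. Values for named genes of these lists are therefore descriptions. Where a pair of log2 fold changes is given, the first is from all 6 libraries and the second is without FGFBP1-CM replicate 1, and the counts and medians of each list are given both ways.

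Among cystine, glutamate and partner transporters, 7 of 9 tested genes had a positive log2 fold change, with a median of 0.16 and none at an unadjusted p under 0.05. Over the 5 libraries besides FGFBP1-CM replicate 1, 4 of 9 were positive and the median was -9.7e-05. Of the genes of at least 1 CPM on average, SLC7A6 (0.23, 0.05) and CTNS, the lysosomal cystine exporter (0.20, 0.02), were highest with all libraries. SLC1A3, a glutamate transporter (-0.10, -0.05), and SLC7A5, another partner of SLC3A2 (-0.02, -0.09), were lowest. SLC7A7, below 1 CPM on average, had a higher value with all libraries (0.47, -0.02). SLC7A5 was at 2.19 ± 0.138 FPKM (SD, n = 6) and SLC7A6 at 1.38 ± 0.262 FPKM, so SLC7A11 was the more abundant of these SLC3A2 partners. Among genes of glutathione synthesis and turnover, 10 of 15 were positive, with a median of 0.03, 2 higher and 1 lower at an unadjusted p under 0.05. With the 5 libraries other than FGFBP1-CM replicate 1, 9 were positive, the median was 0.02, and 2 were higher and 0 lower at that p. The highest were the glutathione-degrading enzymes CHAC1 and CHAC2. CHAC1 was at 1.17, 0.796 and 0.943 CPM in Vector-CM and 3.85, 1.44 and 1.96 CPM in FGFBP1-CM, 1.32 on the log2 scale (SE 0.362, edgeR adjusted p = 0.0847) and 0.79 without FGFBP1-CM replicate 1. CHAC2 was at 3.01, 3.26 and 2.90 CPM in Vector-CM and 7.49, 4.08 and 3.98 CPM in FGFBP1-CM, 0.78 on the log2 scale (SE 0.242, edgeR adjusted p = 0.105) and 0.40 without that library. Both had no overlap between groups, with FGFBP1-CM replicate 1 far above the rest. GGCT (-0.21, -0.19) and GGT7 (-0.21, -0.18), also of glutathione turnover, were lowest.

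Among glutathione peroxidases, transferases and glutaredoxins, 11 of 25 were positive, with a median of -0.05, 2 higher and 1 lower at an unadjusted p under 0.05. With FGFBP1-CM replicate 1 omitted, 11 were positive, the median was -0.03, and 1 was higher and 1 lower at that p. GPX3 (0.57, 0.18) and GSTO2 (0.38, 0.21) were highest and GPX2 (-0.59, -0.45) and GSTM3 (-0.33, -0.24) lowest. GPX1, the abundant cytosolic glutathione peroxidase, was at 102 ± 4.54 FPKM (SD, n = 6), above GPX4, while GPX8 was at 24.3 ± 1.70 FPKM and GPX2 at 0.755 ± 0.198 FPKM. Among thioredoxins, peroxiredoxins and methionine sulfoxide reductases, 10 of 21 were positive, with a median of -0.01, 2 higher and 4 lower at an unadjusted p under 0.05. When FGFBP1-CM replicate 1 was left out, 10 were positive, the median was -0.0025, and 0 were higher and 3 lower at that p. SESN2 (0.40, 0.17) and MSRB1 (0.39, 0.15) were highest and TXNIP, which binds and inhibits thioredoxin (-0.51, -0.27), and TXNRD2, the mitochondrial thioredoxin reductase (-0.39, -0.26), lowest. TXNRD2 was at 39.8, 39.6 and 41.8 CPM in Vector-CM and 25.5, 37.3 and 30.0 CPM in FGFBP1-CM, lower in every FGFBP1-CM library, while TXNRD1 was higher in every one. By level, TXNRD1 (85.5 FPKM) exceeded TXNRD2 (4.33 ± 0.724 FPKM) and TXNRD3 (2.26 ± 0.241 FPKM), and its substrate TXN was at 213 ± 18.1 FPKM (SD, n = 6).

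Among enzymes listed under NADPH supply, 4 of 14 were positive, with a median of -0.06, 1 higher and 2 lower at an unadjusted p under 0.05. Over the 5 libraries besides FGFBP1-CM replicate 1, 5 were positive, the median was -0.04, and 0 were higher and 2 lower at that p. ME1 (0.36, 0.32) and NADK (0.12, 0.03) were highest and IDH2 (-0.43, -0.32) and TKT (-0.30, -0.24) lowest. TKT, of the pentose phosphate pathway, was at 265, 244 and 259 CPM in Vector-CM and 188, 214 and 221 CPM in FGFBP1-CM, with no overlap. Among other NRF2 targets, 18 of 26 were positive, with a median of 0.07, 7 higher and 2 lower at an unadjusted p under 0.05. With the 5 libraries other than FGFBP1-CM replicate 1, 16 were positive, the median was 0.03, and 4 were higher and 2 lower at that p. HMOX1, heme oxygenase, was at 29.1, 30.7 and 34.1 CPM in Vector-CM and 181, 52.2 and 78.1 CPM in FGFBP1-CM, so its FGFBP1-CM libraries fell in the same order as those of SLC7A11. HMOX1 had a log2 fold change of 1.74 (SE 0.325, edgeR adjusted p = 0.0557), and of 1.06 without FGFBP1-CM replicate 1, where it passed the threshold. Next among targets of at least 1 CPM was ABCC2, an exporter of glutathione conjugates (0.57, 0.37), and TKT and MAFG (-0.20, -0.14) were lowest. Among NRF2 regulators and partners, 9 of 16 were positive, with a median of 0.05 and 4 in each direction at an unadjusted p under 0.05. With FGFBP1-CM replicate 1 omitted, 10 were positive, the median was 0.07, and 3 were higher and 1 lower at that p. BTRC (0.38, 0.23) and KEAP1 (0.37, 0.22), subunits of 2 ubiquitin ligases that degrade NRF2, were highest, and the small MAF partners MAFK (-0.22, -0.15) and MAFF (-0.22, -0.14) lowest.

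Among factors of selenocysteine incorporation, on which GPX4 and TXNRD1 depend, 5 of 10 were positive, with a median of -0.01 and 1 in each direction at an unadjusted p under 0.05. When FGFBP1-CM replicate 1 was left out, 3 were positive, the median was -0.06, and again 1 lay in each direction at that p. SEPHS2, which makes the selenium donor, was at 23.7, 27.2 and 25.8 CPM in Vector-CM and 47.2, 31.6 and 33.6 CPM in FGFBP1-CM, 0.56 on the log2 scale (SE 0.131, edgeR adjusted p = 0.0658) with no overlap and 0.36 without FGFBP1-CM replicate 1. SARS1 (0.09, 0.03) was next, and TRNAU1AP (-0.19, -0.13) and SEPHS1 (-0.13, -0.18) were lowest. Among other selenoproteins, 8 of 17 were positive, with a median of -0.01, 1 higher and 2 lower at an unadjusted p under 0.05. Over the 5 libraries besides FGFBP1-CM replicate 1, 8 were positive, the median was -0.04, and 0 were higher and 2 lower at that p. GPX3 and MSRB1 were highest in that list and GPX2 and TXNRD2 lowest, with the values given above. Among genes of ferroptosis and lipid peroxidation, 9 of 19 were positive, with a median of -0.02 and 2 in each direction at an unadjusted p under 0.05. With the 5 libraries other than FGFBP1-CM replicate 1, 8 were positive, the median was -0.03, and 0 lay in either direction at that p. TFRC, the transferrin receptor (0.24, 0.17), and POR (0.20, 0.12) were highest, and SAT1 (-0.24, -0.14) and ACSL3 (-0.16, -0.10) lowest. Of the superoxide dismutases, catalase and the copper chaperone CCS, 2 of 5 were positive, with a median of -0.01, and without FGFBP1-CM replicate 1, 4 were positive, with a median of 0.04. SOD1 (0.12, 0.06) and CCS (0.10, 0.08) were highest and SOD2 (-0.19, -0.14) and SOD3 (-0.06, 0.0048) lowest, SOD2 being the 1 gene at an unadjusted p under 0.05.

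Among targets of ATF4, the factor of the amino acid response that also acts on SLC7A11, 14 of 20 were positive, with a median of 0.13, 7 higher and 1 lower at an unadjusted p under 0.05. With FGFBP1-CM replicate 1 omitted, 10 of 20 were positive, the median was 0.0041, and 2 were higher and 0 lower at that p. CHAC1 and PSAT1, of serine synthesis, were highest. PSAT1 was at 82.6, 87.0 and 90.6 CPM in Vector-CM and 143, 97.1 and 113 CPM in FGFBP1-CM, 0.44 on the log2 scale (SE 0.110, edgeR adjusted p = 0.0720) with no overlap and 0.28 without FGFBP1-CM replicate 1. ASNS, asparagine synthetase (-0.29, -0.25), and ATF3 (-0.23, -0.20) were lowest, and both were lower in every FGFBP1-CM library.

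**Figure D4:**
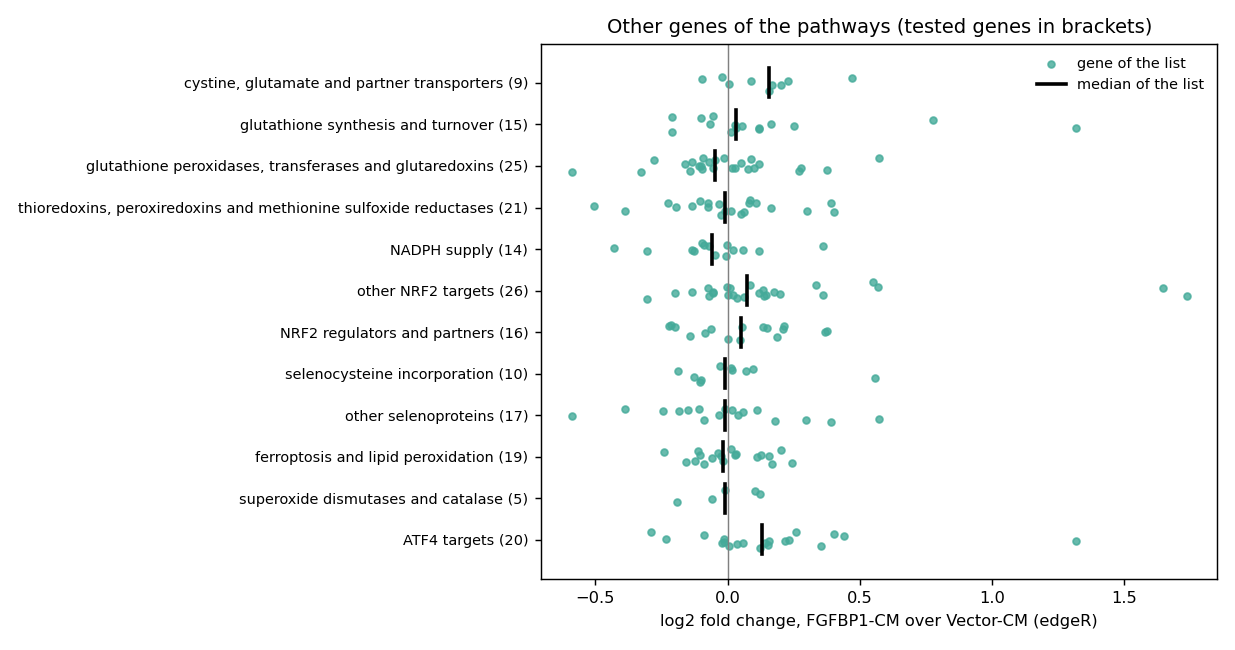
log2 fold change of FGFBP1-CM over Vector-CM (edgeR) for the tested genes of the 12 pathway lists, with 1 point per gene and a bar at the median of each list. The medians lie between -0.06 and 0.16, and the points farthest to the right are HMOX1 at 1.74, AKR1B10 at 1.65 (below 1 CPM on average) and CHAC1 at 1.32.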

How the data were processed

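The 10 genes and the pathway and marker lists were chosen with earlier results of these data known. RNA from 6 libraries was sequenced in read pairs. Per the submitters' processing notes and the methods, the authors aligned reads with HISAT2 2.0.5 and counted them per gene with featureCounts 1.5.0-p3. The raw count of each gene was deposited by the authors, and FPKM values were deposited beside the counts. The notes name hg18 with no role, and the annotation release and strand setting are not given in the sources used here. Both poly(A) selection and ribosomal RNA depletion are described. The table held 60780 rows, 175 of them without an Ensembl identifier. Coordinates and exons are those of GENCODE 29 (GRCh38) for the same identifier and need not be those used for counting. Its functional annotation columns (Gene Ontology and KEGG) were not used.

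Counts were compared with edgeR 4.0.16 (R 4.3.3): filterByExpr, TMM scaling and the quasi-likelihood F-test without a replicate block, adjusted over 16707 genes by Benjamini-Hochberg (threshold 0.05). The SE is the log2 fold change divided by the square root of F. A count of 0 allows up to 3 counts, 0.162 to 0.214 CPM, a floor for counting error alone. No exact permutation test was run, since 3 against 3 libraries allow no p below 0.1. Libraries of a group differed by more than sampling noise. Named list genes were the 2 highest and 2 lowest log2 fold changes of at least 1 CPM in each list. The 5 genes nearest SLC7A11 were taken from the other genes of at least 10 CPM.

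The comparison was repeated with RLE scaling, with unscaled library sizes, without the filter (1 count sufficed), with a mean CPM of 1 or more, in DESeq2 1.42.0, limma 3.58.1 on log2(FPKM + 1) and log2(FPKM + 0.1), with a replicate block, after removal of each library's loess trend (span 0.3) with GC content and length (98.2% of genes have both), with that correction and the block, at a threshold of 0.1, and leaving out each library. On simulated counts for the 16707 genes with 200 changed 2-fold, the edgeR test recovered 80.0% on average over 5 draws, with 6.96% false calls.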

Additional observations from a re-analysis of the deposited data

How the results depend on the processing

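SLC7A11 kept its direction in all alternatives and stayed past the threshold with RLE scaling, library size only, no filter, DESeq2, the replicate block and the GC and length correction with or without the block. It was no longer past it with a mean of at least 1 CPM (log2 fold change 0.77, adjusted p = 0.0569, edgeR) or in limma on log2(FPKM + 1) (0.65, adjusted p = 0.185) and log2(FPKM + 0.1) (0.78, adjusted p = 0.176). Leaving out one library gave 0.62 to 0.91. The SLC7A11 call held without any one FGFBP1-CM library and was lost without Vector-CM replicate 1, 2 or 3 (adjusted p = 0.0976, 0.176 and 0.242, edgeR). The other 8 tested genes kept their direction and side of the threshold in 112 values, passed it in 14 more and reversed in 2: with a library left out NQO1 ran from -0.035 (without FGFBP1-CM replicate 1) to 0.19 and NFE2L2 from -0.017 (without Vector-CM replicate 2) to 0.12. GCLM, TXNRD1 and GPX4 passed in DESeq2 (adjusted p = 0.00199, 0.00584 and 0.0283). Without FGFBP1-CM replicate 2, TXNRD1 (adjusted p = 0.0120), GPX4 (0.0461) and SLC3A2 (0.0319) passed in edgeR, GPX4 also passed without FGFBP1-CM replicate 3 (0.0489), and GCLM without any one FGFBP1-CM library. The number of genes past the threshold, 20, became 38 with RLE scaling (24 higher and 14 lower, against 9 and 11), 1382 with no filter, where the prior degrees of freedom became infinite instead of 9.32, 11 with a mean of at least 1 CPM, 585 in DESeq2, 1 in each limma fit, 90 with the replicate block, 47 with the GC and length correction (20 higher and 27 lower), 251 with that correction and the block, 932 at a threshold of 0.1, and 4 to 883 with a library left out (6, 4 and 4 without Vector-CM replicate 1, 2 and 3, and 72, 883 and 402 without FGFBP1-CM replicate 1, 2 and 3). Of the pathway list genes, 0 in edgeR with 43 at an unadjusted p under 0.05, 1 passed with RLE scaling, 20 with no filter, 7 in DESeq2, 1 with the replicate block, 1 with the GC and length correction, 5 with that correction and the block, and 0 to 14 with a library left out (0 without any one Vector-CM library, and 1, which was HMOX1, 14 and 5 without FGFBP1-CM replicate 1, 2 and 3). Where values moved the cause was not tested. With 129 genes at an adjusted p from 0.05 to 0.06, a count of calls says little about any gene near the threshold, SLC7A11 and GCLM included, and with 3 libraries a group the spread is known only roughly. Same-numbered libraries did not deviate together (r = -0.12, -0.02 and 0.15 over 15033 genes), and no label ties the numbers to a shared culture or day, so the replicate block has no known pairing behind it.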
